A study of Danio rerio with 6 samples.

Results

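Molecular chaperones bind unfolded or partly folded proteins, and many of them release these proteins in cycles of ATP use. Hsp70 proteins receive their clients from DnaJ proteins, and Bag and Hsp110 proteins exchange their nucleotide. Hsp90 completes the folding of kinases and receptors, and the ring-shaped TRiC chaperonin folds actin and tubulin. The heat shock factors switch on the inducible members under heat or proteotoxic stress, while a separate response controls the chaperones of the endoplasmic reticulum. Heat shock genes are known to be induced after fin amputation in zebrafish, where hspd1 is required for outgrowth of the regenerate.

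The genes described here were all rows of the deposited table whose symbol begins as a heat shock protein (hspa, hspb, hspd, hspe, hsph or hsp with a digit), a DnaJ protein of type A, B or C, a Bag protein, a subunit of TRiC, or a heat shock factor. The rule also takes in hspbp1 and hspbap1, which bind heat shock proteins and are not chaperones themselves. It found 98 identifiers with 97 symbols among 19822 genes. The symbol hsp70.1 belonged to 2 identifiers, ENSDARG00000029688 and ENSDARG00000092362. By class there were 4 genes of Hsp90, 19 of Hsp70 and Hsp110, 7 of the small heat shock proteins, 2 of the mitochondrial chaperonin, 8 of TRiC, 5 of DnaJ A, 13 of DnaJ B, 29 of DnaJ C, 7 of Bag, 2 cofactors and 2 heat shock factors.

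The RNA came from regenerating caudal fins of wild-type AB zebrafish, 3 to 12 months old and of both sexes in equal number, collected 24 h after amputation with 1 ray segment of the stump. Fish of the Galloflavin group had received intraperitoneal Galloflavin, an inhibitor of lactate dehydrogenase, at 0.12 mg/g in DMSO. Fish of the DMSO group had received DMSO alone. All fish had been housed at 28 °C and were moved to 33 °C for the regeneration, so that the warmer water was common to both groups and no library represents fins kept at 28 °C. Each group had 3 libraries, with 1 per batch (B1 to B3), and each library was made from 10 pooled fins, so fish-to-fish variation within a pool is not visible.

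Between 17712157 and 29596335 reads per library had been assigned to genes, both B3 libraries being the shallowest, and 1 read was worth a normalised count of 0.0338 to 0.0543. Principal components were computed on the most variable genes only, and the first held 45.6% of the variance of those genes. On it the B3 libraries lay at 15.1 with Galloflavin and 14.3 with DMSO, and the other 4 at -16.5 to -1.24. Markers of epidermis (8 of 8 listed genes in the table) and of blastema mesenchyme (8 of 8) were detected in every library. Summed normalised counts were 64350 to 86970 with Galloflavin against 60820 to 88240 with DMSO for epidermis. For blastema they were 11180 to 15130 against 12830 to 14920. These sums were mostly krt5 for epidermis and fn1b for blastema, so they say little of the other markers. The normalised counts were compared as log2(value + 1) with limma, after genes averaging under 1 across all 6 libraries had been set aside. This left 15806 genes, among them 91 of the 98 chaperone genes. The other 7 were below that level: hsp90aa1.1, hspa4l, hspb6, hspb7, hspb9, hspb9l and dnajc16.

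No chaperone gene differed between Galloflavin and DMSO fins at an adjusted p of 0.05, and neither did any of the 15806 genes, a background of 0.0%. Of the 91 chaperone genes 47 lay above 0 and 44 below it, with a median log2 fold change of 0.01, against -0.004 for all genes. At an unadjusted p under 0.05, 1 chaperone gene was higher (hspb1) against a background of 4.18% of all genes, and 1 was lower (bag4) against 3.03%. Both counts are below the share found over all genes. In 2 of the 91 the 3 Galloflavin libraries all lay above the 3 DMSO libraries (hspb1 and dnajb14), and in 2 they all lay below (bag4 and dnajb9a), where 6.97% and 6.47% of all genes did so. Higher values with Galloflavin in all 3 batches were found for 8 chaperone genes against a background of 17.0%, and lower values in all 3 for 7 against 16.4%.

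The batches did not give the same direction. In B1 the median log2 ratio of Galloflavin over DMSO was -0.14 for the 91 chaperone genes and 24 of them were higher with Galloflavin. In B2 the median was 0.13 and 59 were higher, and in B3 it was 0.02 and 53 were higher. Over all genes the medians were 0.01, -0.02 and 0.0007, and 8093, 7608 and 7916 of the 15806 were higher with Galloflavin. Of the 91 genes 49, or 53.8%, were lower with Galloflavin in B1 and higher with Galloflavin in B2, against 19.7% of all genes. With both differences at least 1.5-fold on the log2(value + 1) scale there were 11, or 12.1%, against 0.449% of all genes. These 11 were hsp90aa1.2, hsp90b1, hsp70.1 (ENSDARG00000092362), hsp70.3, hsp70l, hspa1b, hspa4a, hspa5, hspa8b, hsph1 and dnajb1b. Of these, hspa1b had 8, 57 and 9 reads in Galloflavin B1, B2 and B3 against 29, 29 and 19 with DMSO. Its mean of 1.02 reached the filter only with Galloflavin B2 included, a library that defines the pattern. The pattern was chosen for description after the values had been seen, so these shares are not a test. Each ratio compares 1 library with 1 other, and the genes are not replicates of a batch. A difference between batches and one between single pools cannot be told apart here.

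**Figure D1:**
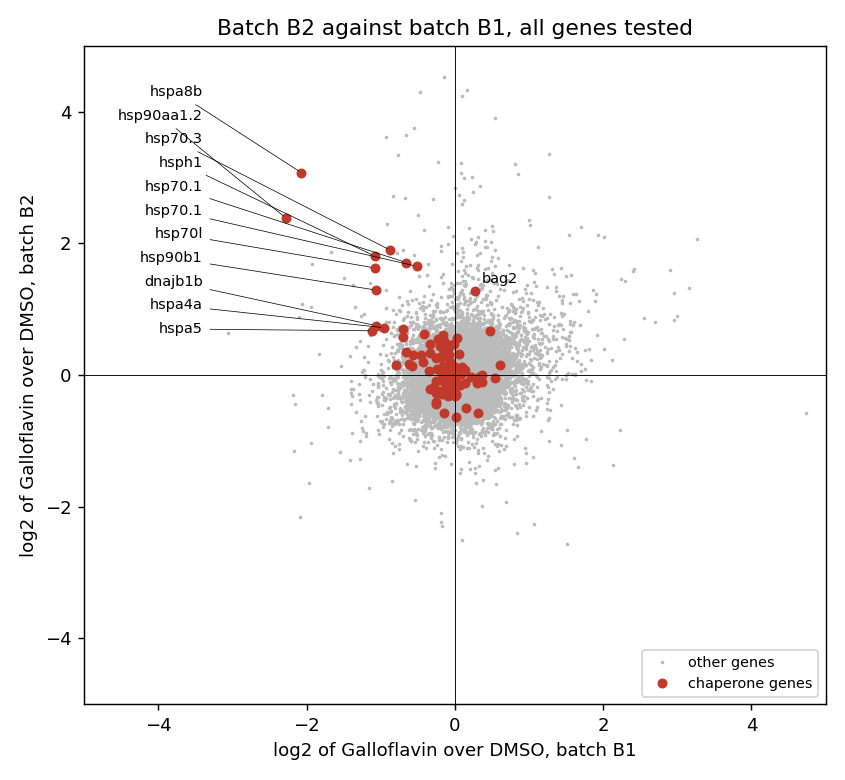
The log2 ratio of Galloflavin over DMSO in batch B2 (vertical axis) against that in batch B1 (horizontal axis), computed on values + 1, for the 91 chaperone genes in red and all other genes tested in grey, 1 point per gene. The named genes of the upper left quadrant were lower with Galloflavin in B1 and higher in B2, with hspa8b at -2.07 and 3.07 and hsp90aa1.2 at -2.28 and 2.38.

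Seen by library, Galloflavin B2 was the highest of the 6 for 32 of the 91 chaperone genes (background 18.8%) and Galloflavin B1 the lowest for 42 (background 15.6%). For 24 of them, or 26.4%, both were the case, against 3.3% of all genes. The DMSO libraries varied along the same line to a smaller extent: Galloflavin B1 and DMSO B2 were the 2 lowest libraries for 38 chaperone genes, or 41.8%, against 6.54% of all genes. The spread among the Galloflavin libraries was at least 2-fold on the log2(value + 1) scale for 18 chaperone genes (background 7.33%), and among the DMSO libraries for 6 (background 3.93%). The share of all reads that fell in the 98 genes was 1.60%, 2.18% and 2.26% in Galloflavin B1, B2 and B3, against 1.88%, 1.68% and 2.31% in DMSO B1, B2 and B3.

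**Figure D2:**
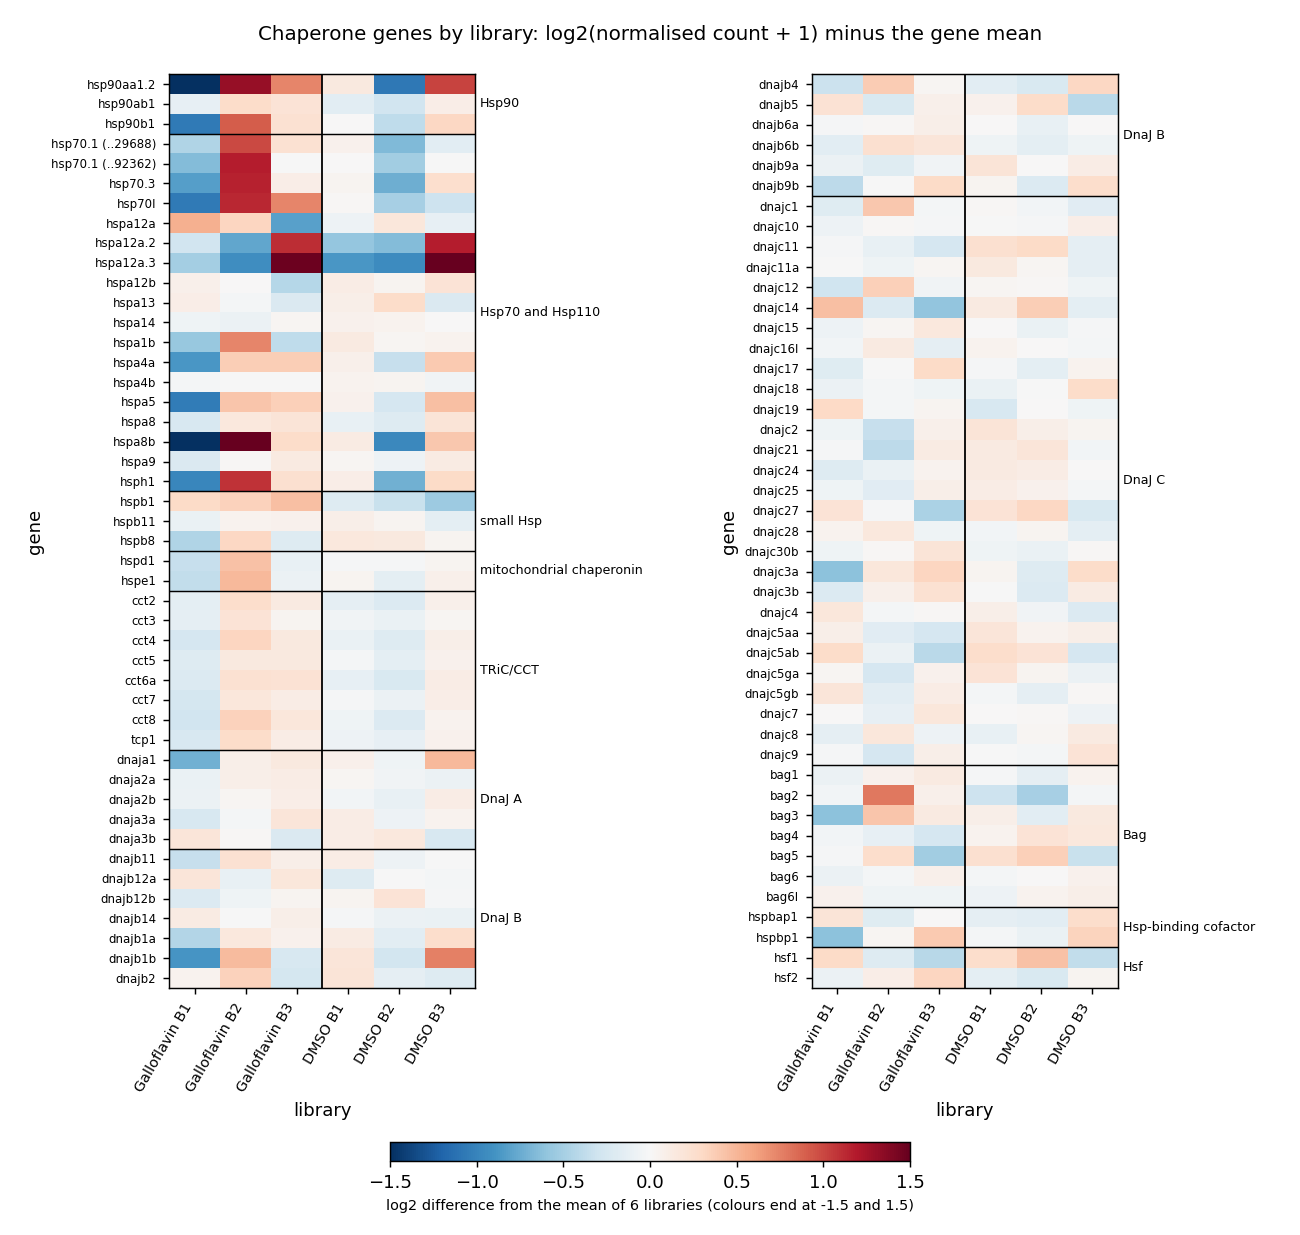
Each row is 1 of the 91 chaperone genes, ordered by class, and each column 1 library, with the Galloflavin libraries left of the DMSO libraries. Colour gives log2(normalised count + 1) minus the mean of the gene over the 6 libraries, red above and blue below, and the strongest contrasts are Galloflavin B1 (low) and B2 (high) in the Hsp90 and Hsp70 rows and both B3 libraries (high) for hspa12a.2 and hspa12a.3.

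Among the Hsp90 genes, the inducible cytosolic form hsp90aa1.2 moved the most between libraries. Its normalised counts were 56.0, 619 and 414 in Galloflavin B1, B2 and B3, against 275, 118 and 503 in DMSO B1, B2 and B3. Galloflavin held both the lowest and the highest library, an 11-fold range against 4.27-fold for DMSO. The log2 fold change was -0.06 ± 0.91 (SE, limma adjusted p = 0.998), and it ran from -1.28 without batch B2 to 1.05 without batch B1. The endoplasmic reticulum form hsp90b1, also called Grp94, had 439, 1712 and 1070 with Galloflavin against 916, 699 and 1130 with DMSO (0.05 ± 0.46). The constitutive cytosolic form hsp90ab1 had 5032, 6656 and 6347 with Galloflavin, against 4921, 4488 and 5873 with DMSO. It was higher with Galloflavin in every batch, but the groups overlapped (0.24 ± 0.17, limma adjusted p = 0.794). The muscle form hsp90aa1.1, which in zebrafish folds myosin, was near the detection limit at 6 to 16 reads per library and was not tested.

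Like hsp90aa1.2, the heat-inducible Hsp70 genes were lower with Galloflavin in B1 and higher with Galloflavin in B2. In B3 they did not share a direction. Normalised counts of hsp70.3 were 19.1, 78.4 and 37.1 in Galloflavin B1, B2 and B3, against 35.7, 20.3 and 41.4 in DMSO B1, B2 and B3 (log2 fold change 0.29 ± 0.49). The gene hsp70l had 4.78, 25.4 and 19.2 with Galloflavin against 11.2, 7.55 and 8.80 with DMSO, and so was higher with Galloflavin in B2 and in B3 (0.53 ± 0.52). For hsp70.1, identifier ENSDARG00000092362 had 13.5, 50.4 and 21.5 with Galloflavin against 21.8, 14.7 and 21.5 with DMSO (0.35 ± 0.43). Identifier ENSDARG00000029688 had 6.37, 18.96 and 10.8 with Galloflavin against 9.52, 5.35 and 8.06 with DMSO (0.51 ± 0.36). None of the 4 had groups that separated, and the lowest limma adjusted p was 0.8. The genes hsp70.1, hsp70.2 and hsp70.3 lie next to each other in the RefSeq annotation and are near copies, so reads may have been divided among them. No identifier carried the symbol hsp70.2. A table of gene names gave ENSDARG00000092362 the symbol HSPA2 in place of hsp70.1. Whether either hsp70.1 identifier stands for hsp70.2 was not settled.

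Other Hsp70 genes ranged from nearly even values to wide differences between libraries. The main cytosolic form hspa8 (Hsc70) had 4370, 5736 and 5895 with Galloflavin, against 4760, 4496 and 5888 with DMSO, a range of 1.35-fold over the 6 libraries (0.08 ± 0.17). The gene annotated as hspa8b instead had 2.39, 55.3 and 14.8 with Galloflavin against 13.2, 5.69 and 16.2 with DMSO. The range was 23.1-fold between Galloflavin B1 with 62 reads and Galloflavin B2 with 1412 reads (0.29 ± 0.93, limma adjusted p = 0.969). The endoplasmic reticulum form hspa5, also called BiP, had 398, 1101 and 1056 with Galloflavin, against 863, 690 and 1129 with DMSO (-0.18 ± 0.40). Here only Galloflavin B1 stood clear of the other 5 libraries. The mitochondrial form hspa9 had 233, 274 and 298 with Galloflavin against 277, 257 and 295 with DMSO (-0.05 ± 0.11).

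The Hsp110 genes, which exchange the nucleotide of Hsp70, differed from each other in the same way. The inducible hsph1 had 3.70, 18.7 and 9.98 with Galloflavin, against 8.93, 4.64 and 10.3 with DMSO (0.23 ± 0.51). Its relative hspa4a had 154, 365 and 364 with Galloflavin, against 298, 222 and 369 with DMSO (-0.08 ± 0.35). The paralog hspa4b varied 1.07-fold over the 6 libraries (-0.03 ± 0.08). Over the 18 tested genes of Hsp70 and Hsp110 the batch medians of the log2 ratio were -0.38, 0.51 and -0.03, and 4, 13 and 8 genes were higher with Galloflavin in B1, B2 and B3.

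**Figure D3:**
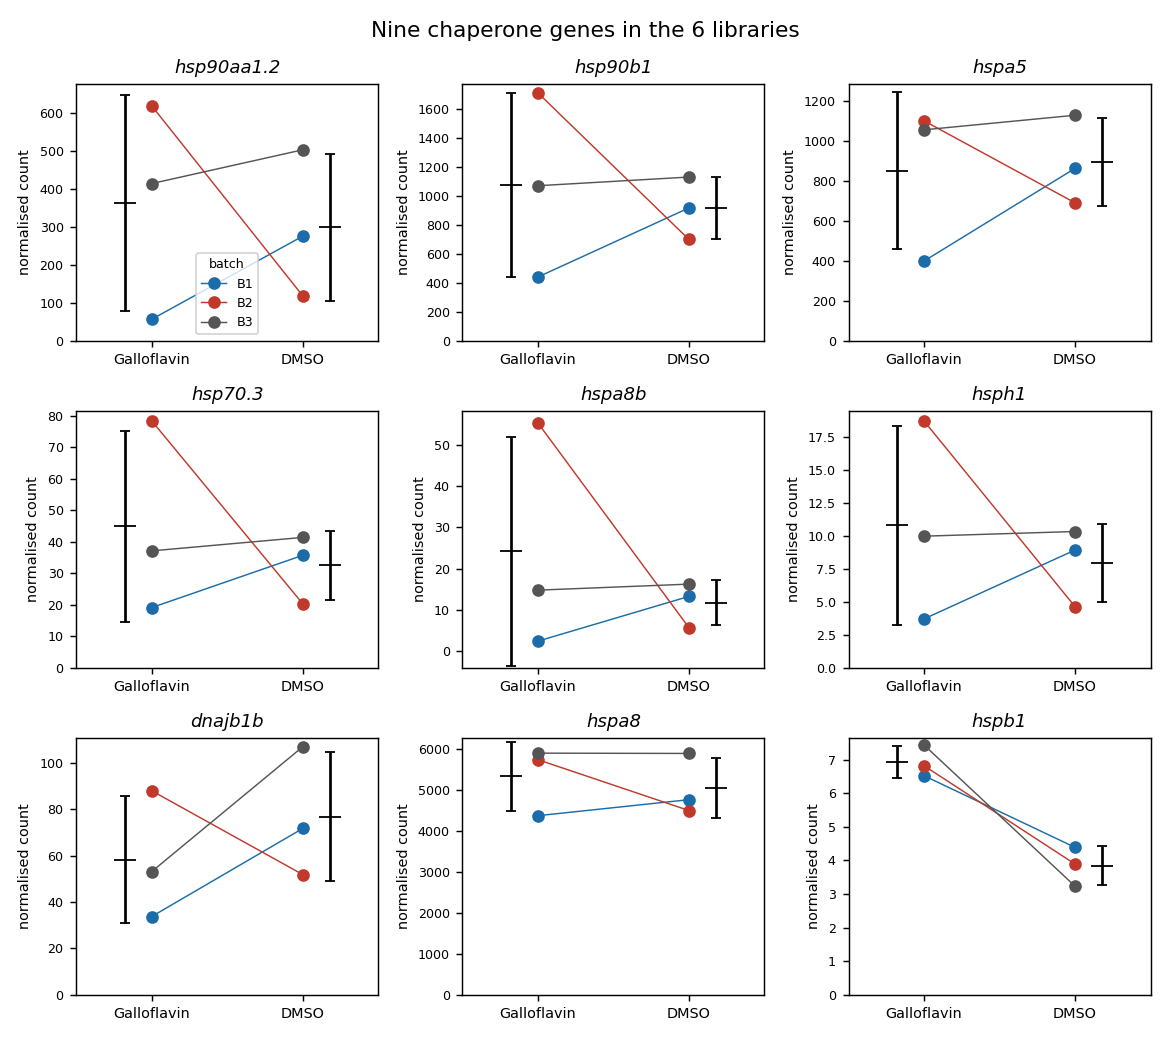
Normalised counts of 9 chaperone genes, with Galloflavin left of DMSO in each panel; points are single libraries coloured by batch, lines join the 2 libraries of a batch, and the black bars beside them give the mean ± SD of 3 libraries. In 6 of the panels (hsp90aa1.2, hsp90b1, hspa5, hsp70.3, hspa8b and hsph1) the lines of B1 and B2 cross while the B3 ratio of Galloflavin over DMSO is 0.823 to 0.966, and in the panel of hspb1 all 3 lines run in the same direction.

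Hypoxia-responsive genes also stood high in Galloflavin B2. Their summed normalised count (10 of 10 listed genes in the table) was 1108, 3472 and 658 in Galloflavin B1, B2 and B3, against 975, 667 and 576 in DMSO B1, B2 and B3, and 0 of the 9 that were tested passed limma. Leukocyte markers (7 of 8 in the table) summed to 248, 226 and 248 with Galloflavin against 210.0, 194 and 257 with DMSO. Of the 19 muscle markers listed, 5 were in the table, with sums of 8.45, 15.2 and 10.2 with Galloflavin against 7.81, 10.2 and 8.75 with DMSO, and mybpc2b was at 0 in both B1 libraries. The epidermal sum given above was mostly krt5. The blastema sum was mostly fn1b, at 10660 to 14670 with Galloflavin and 11100 to 14430 with DMSO. Of 8 epidermal markers tested, 3 (cdh1, cldni and epcam) were higher in all 3 Galloflavin libraries than in all 3 DMSO libraries. So were 3 of 7 leukocyte markers (lect2.1, marco and mfap4.1) and 2 of 9 hypoxia genes (bhlhe40 and bhlhe41). Of 8 blastema markers 1 (tph1b) was lower. Over all genes 6.97% were higher and 6.47% lower in this way. The other markers overlapped, and their directions were mixed outside the hypoxia list. The epidermal krt4, krt5 and krtt1c19e and the leukocyte mpeg1.1 and ptprc had log2 fold changes below 0. Those of itga6b, tp63, coro1a and mpx were above 0. None of the markers passed limma. As an example, epcam had 1375, 1691 and 1490 with Galloflavin against 1084, 1079 and 1140 with DMSO (limma adjusted p = 0.602). The part of any of these in the chaperone values was not tested. In pooled tissue, a smaller number of cells of some type and less RNA per cell cannot be told apart.

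The small heat shock protein gene hspb1 had the lowest p of the 91 chaperone genes. It encodes Hsp27, which holds unfolded proteins without ATP and binds the actin cytoskeleton. Its normalised counts were 6.52, 6.82 and 7.43 in Galloflavin B1, B2 and B3 (169, 174 and 137 reads), against 4.39, 3.89 and 3.23 in DMSO B1, B2 and B3 (113, 115 and 61 reads). All 3 Galloflavin libraries were above all 3 DMSO libraries, by 1.49-fold, 1.75-fold and 2.30-fold within the batches. Galloflavin libraries spanned 1.14-fold and DMSO libraries 1.36-fold. The log2 fold change was 0.72 ± 0.14 (SE), with an unadjusted limma p of 0.00129 and an adjusted p of 0.537, so it did not pass over all genes. On the recovered reads DESeq2 called it (adjusted p = 0.0242), but not with batch as a block (DESeq2 adjusted p = 0.198), and edgeR did not (adjusted p = 0.555). With batch as a block in limma its adjusted p was 0.329. In that fit it was the only 1 of the 91 chaperone genes at an unadjusted p under 0.05, where 10.0% of all genes were. An exact permutation test of 3 against 3 libraries cannot give a two-sided p below 0.1.

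The other tested small heat shock genes did not share this. The gene hspb8, whose product works with Bag3 in clearing damaged proteins, had 3.59, 6.82 and 4.504 with Galloflavin, against 6.02, 5.96 and 5.46 with DMSO (-0.23 ± 0.20). The gene hspb11 had 1.74, 2.04 and 2.06 with Galloflavin against 2.097, 1.997 and 1.64 with DMSO (0.02 ± 0.14). The muscle-associated hspb6 and hspb7 lay at 0.651 to 1.12 with Galloflavin and 0.738 to 1.33 with DMSO and were not tested, nor were hspb9 and hspb9l, which had at most 0.427 in any library.

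The mitochondrial chaperonin subunit genes hspd1 (Hsp60) and hspe1 (Hsp10) are adjacent in the RefSeq annotation and varied together. Values of hspd1 were 321, 557 and 379 in Galloflavin B1, B2 and B3, against 405, 403 and 421 in DMSO B1, B2 and B3. The 3 DMSO libraries lay within 1.05-fold of each other, and Galloflavin libraries lay on both sides of them (-0.01 ± 0.19). The partner hspe1 had 76.7, 139 and 93.1 with Galloflavin, against 102, 89.8 and 105 with DMSO (0.02 ± 0.21). Within batches the log2 ratios were -0.34, 0.47 and -0.15 for hspd1 and -0.41, 0.62 and -0.17 for hspe1.

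All 8 subunit genes of TRiC found by the rule were lower with Galloflavin in B1 and higher with Galloflavin in B2 and B3. A further cct2 entry, without a symbol in the deposited table, was left out here. The sum of the 8 normalised counts was 2973, 4108 and 3812 in Galloflavin B1, B2 and B3, against 3280, 3089 and 3643 in DMSO B1, B2 and B3. The single ratios were small, from -0.26 to -0.02 in B1, 0.26 to 0.55 in B2 and 0.01 to 0.12 in B3 on the log2 scale. Each subunit stayed within -0.10 to 0.10 of the mean log2 deviation of the complex in every library. The subunit with the highest normalised count, cct6a, had 526, 709 and 702 with Galloflavin against 553, 514 and 650.3 with DMSO (0.17 ± 0.15, limma adjusted p = 0.846). The 8 log2 fold changes were all positive, from 0.005 for cct7 to 0.17 for cct2, and none passed. Without batch B2 their median was -0.04 instead of 0.12. As the subunits vary as a unit, the 8 are not separate observations of a direction.

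**Figure D4:**
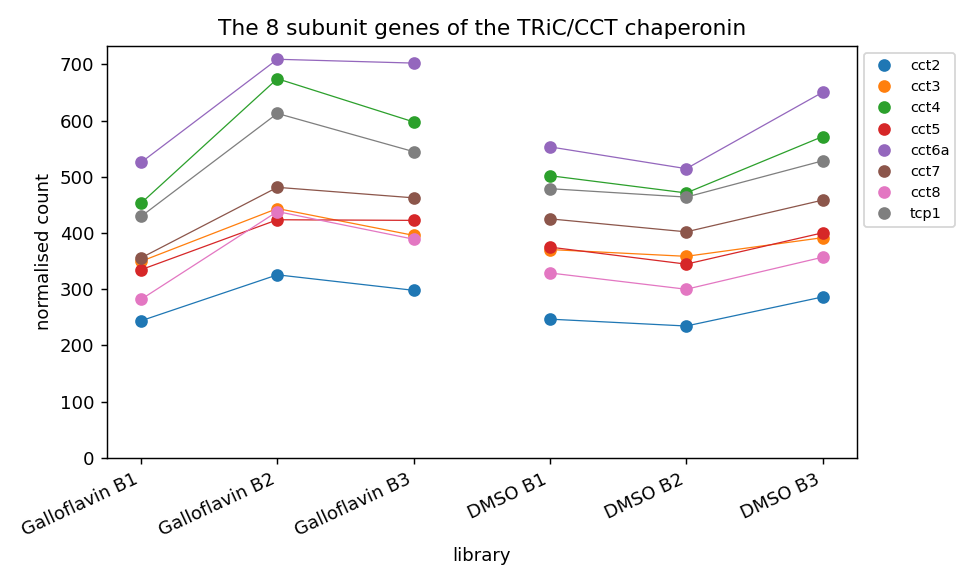
Normalised counts of the 8 TRiC subunit genes in each library, with the Galloflavin libraries left of the DMSO libraries; each colour is a gene, and lines only join the points of a gene within a group. All 8 genes are lower in Galloflavin B1 than in DMSO B1 and higher in Galloflavin B2 than in DMSO B2, and the order of the genes hardly changes between libraries.

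Of the DnaJ proteins, which deliver clients to Hsp70, the stress-inducible cytosolic dnajb1b had the lowest log2 fold change among chaperone genes with a mean of 5 or more. It had 33.8, 88.0 and 53.1 in Galloflavin B1, B2 and B3, against 71.7, 51.8 and 107 in DMSO B1, B2 and B3 (-0.44 ± 0.37, limma adjusted p = 0.829). It was lower with Galloflavin in B1 and B3 and higher in B2. Its paralog dnajb1a had 11.5, 17.9 and 16.7 with Galloflavin, against 17.4, 14.2 and 19.3 with DMSO (-0.15 ± 0.19). The type A gene dnaja1 had 32.6, 58.1 and 60.4 with Galloflavin against 57.5, 51.9 and 76.8 with DMSO (-0.33 ± 0.25). The type A gene with the highest counts, dnaja2a, had 285, 324 and 331 with Galloflavin, against 313, 295 and 288 with DMSO (0.07 ± 0.09).

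Among type B genes, dnajb14 and dnajb9a had groups that did not overlap. Values of dnajb14, which encodes a DnaJ protein of the endoplasmic reticulum membrane, were 9.68, 8.78 and 9.44 with Galloflavin against 8.74, 8.26 and 8.16 with DMSO (0.13 ± 0.11). Values of dnajb9a, whose mammalian counterpart acts in the lumen of the endoplasmic reticulum, were 1.77, 1.61 and 1.84 with Galloflavin against 2.37, 1.96 and 2.17 with DMSO (-0.21 ± 0.14). Neither passed (limma adjusted p = 0.823 for dnajb14 and 0.781 for dnajb9a). The other type B genes overlapped between the groups, among them dnajb11 with 82.4, 122 and 111 in Galloflavin fins against 113, 99.2 and 104 in DMSO fins (-0.02 ± 0.15).

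The 28 tested type C genes, the most varied class in structure, differed little between the groups. Their log2 fold changes ran from -0.26 to 0.20 with a median of -0.04, 11 above 0 and 17 below, and their batch medians were -0.09, -0.04 and 0.06. The gene with the highest counts, dnajc7, which links Hsp70 and Hsp90, had 88.8, 80.7 and 99.4 with Galloflavin against 89.1, 89.7 and 83.4 with DMSO (0.03 ± 0.10). A wider range between libraries was found for dnajc3a, whose product (P58) works with BiP, with 16.1, 28.6 and 31.8 in Galloflavin B1, B2 and B3 against 26.0, 22.1 and 30.9 in DMSO B1, B2 and B3 (-0.09 ± 0.25). The untested dnajc16 had 0.309, 0.470 and 0.434 with Galloflavin against 0.816, 0.711 and 1.17 with DMSO. In reads this was 8, 12 and 8 against 21, 21 and 22. It lies below the filter and was picked after its values were seen. Of all genes tested, 6.47% had groups separated in this direction.

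A list of 19 stress response genes was also read by name. It held chaperones listed as inducible and, beside them, the constitutive hsp90ab1 and the factors hsf1 and hsf2, and 18 of its identifiers were tested. Their batch medians were -0.59, 0.65 and -0.05, against -0.14, 0.13 and 0.02 for all 91 chaperone genes. Of the 18, 4 were higher with Galloflavin in B1, 17 in B2 and 7 in B3, and their median log2 fold change was 0.02. Of all 15806 genes tested, 8093, 7608 and 7916 were higher with Galloflavin in B1, B2 and B3.

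**Figure D5:**
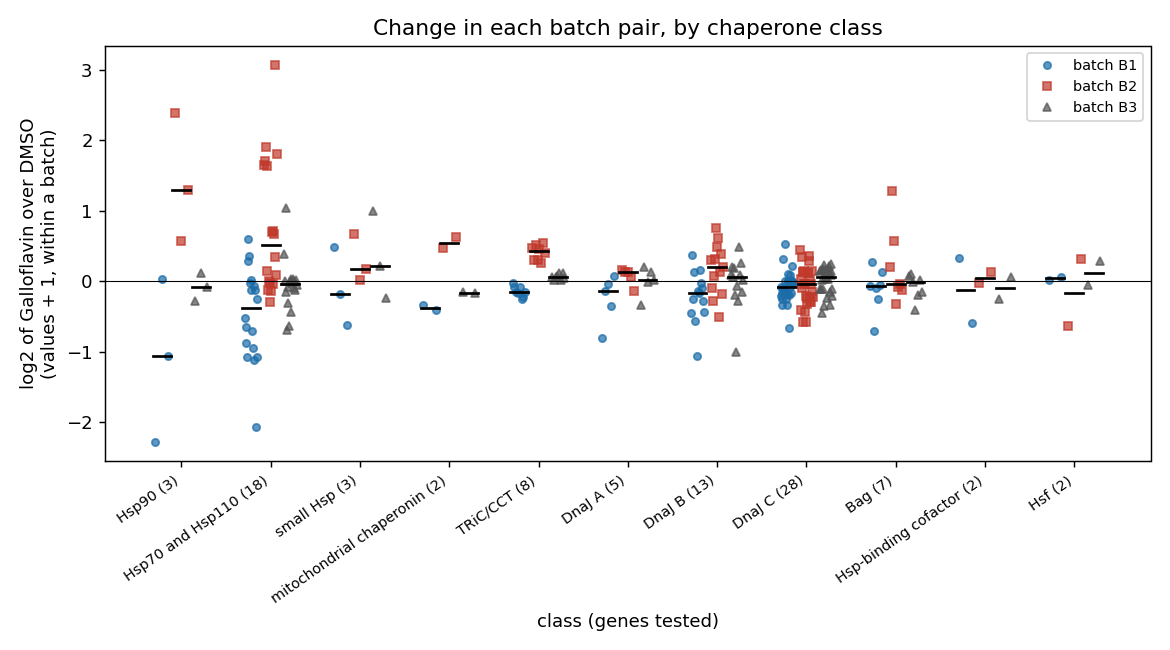
The log2 ratio of Galloflavin over DMSO on values + 1 within batch B1 (blue circles), B2 (red squares) and B3 (grey triangles), 1 point per tested gene, by class, with black lines at the class medians. The medians of Hsp90 are -1.06 in B1, 1.29 in B2 and -0.08 in B3, those of TRiC are -0.15, 0.43 and 0.06, and the 28 type C DnaJ genes lie between -0.66 and 0.54 in every batch.

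Bag proteins release clients from Hsp70. The gene bag4, whose product is known as the silencer of death domains, had 19.4, 18.3 and 16.6 in Galloflavin B1, B2 and B3, against 20.7, 23.1 and 22.3 in DMSO B1, B2 and B3. All Galloflavin libraries were below all DMSO libraries (-0.27 ± 0.10, limma adjusted p = 0.675). The inducible bag3 had 2.62, 6.42 and 5.10 with Galloflavin, against 4.89, 3.99 and 5.14 with DMSO (-0.05 ± 0.27). Values of bag2, an inhibitor of the ubiquitin ligase Chip, were 2.78, 5.72 and 3.09 with Galloflavin against 2.14, 1.76 and 2.81 with DMSO, so that Galloflavin B2 stood above the other 5 libraries (0.55 ± 0.25, limma adjusted p = 0.692). The gene bag6, which acts in the handling of membrane proteins, had 132, 137 and 148 with Galloflavin, against 137, 141 and 146 with DMSO (-0.03 ± 0.08).

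The heat shock factors activate transcription of the inducible chaperones. The main factor hsf1 had 19.4, 13.6 and 11.5 in Galloflavin B1, B2 and B3, against 19.1, 21.7 and 11.9 in DMSO B1, B2 and B3 (-0.22 ± 0.26, limma adjusted p = 0.89). The developmental factor hsf2 had 12.96, 14.8 and 17.6 with Galloflavin, against 12.4, 11.7 and 14.2 with DMSO, higher with Galloflavin in every batch (0.22 ± 0.14, limma adjusted p = 0.762). Transcript levels do not report on the trimerisation and phosphorylation that activate these factors.

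Batch was tested beside the treatment with limma's moderated F test. No chaperone gene passed, and 5 of all genes did, a background of 0.0316%. At an unadjusted p under 0.05 in this F test were 7 of the 91 chaperone genes, or 7.69%, against 12.6% of all genes. Both B3 libraries were above the other 4 for 13 of the 91 chaperone genes (background 12.0%) and below them for 10 (background 16.2%). The lowest batch p among the members belonged to hspa12a.3 and hspa12a.2, distant relatives of Hsp70. The first had 0.386, 0.0392 and 4.504 in Galloflavin B1, B2 and B3, against 0.0777, 0.0338 and 5.83 in DMSO B1, B2 and B3. In reads this was 10, 1 and 83 against 2, 1 and 110. The second had 12, 1 and 52 reads with Galloflavin against 5, 4 and 57 with DMSO. Both were thus detected mainly in the B3 pools of either group (limma adjusted p for batch 0.1 for hspa12a.3 and 0.115 for hspa12a.2). All their B1 and B2 values were below 1, and they reached the filter, with means of 1.81 and 1.11, only through B3. High B3 values were thus a condition of their being tested. Neither these p-values nor a pass with a library left out is support for a batch difference in them. Both passed when either B1 library was left out, at adjusted p of 0.0113 and 0.0274 without Galloflavin B1 and 0.0131 and 0.0289 without DMSO B1, with the lone B1 library assumed to vary like the other batches. Without DMSO B1 the endoplasmic reticulum gene hspa5 (limma adjusted p = 0.0478) and hsp70l (0.0289) passed for batch too. Over all genes the count of 5 ran from 0 to 285 with a library left out, the highest being without DMSO B1. Another gene of that family, hspa12a, was lowest in the B3 library of either group. It had 2.24, 1.80 and 0.271 with Galloflavin against 1.13, 1.52 and 1.06 with DMSO (limma adjusted p for batch 0.516). In reads this was 58, 46 and 5 against 29, 45 and 20. The difference lay mainly in Galloflavin B3, while DMSO B3 was close to DMSO B1.

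The next genes by the batch test were bag5, dnajc5ab, hsf1, dnajc27 and hspbp1, and none passed (limma adjusted p for batch 0.152 to 0.363). Values of bag5 were 38.1, 46.5 and 26.5 in Galloflavin B1, B2 and B3 against 45.4, 49.3 and 30.4 in DMSO B1, B2 and B3 (limma adjusted p for batch 0.152). Values of dnajc5ab, a cysteine string protein of secretory vesicles, were 35.5, 27.2 and 21.7 with Galloflavin, against 35.03, 33.5 and 24.3 with DMSO. Both genes were lowest in the B3 library of either group. The small GTPase gene dnajc27 was also lowest there, with 2.71 in Galloflavin B3 against 4.11 to 4.98 in the other Galloflavin libraries, and with 3.39 in DMSO B3 against 4.97 to 5.38 in the other DMSO libraries. The Hsp70 exchange factor gene hspbp1 was highest in B3, at 25.6 in Galloflavin B3 against 12.2 and 19.6 in Galloflavin B1 and B2, and at 24.4 in DMSO B3 against 18.7 and 17.8 in DMSO B1 and B2. The genes hspa13 and dnajc14 completed the 10 with the lowest batch p together with dnaja1. Values of hspa13, a microsomal Hsp70, were 18.05, 16.4 and 14.2 with Galloflavin, against 17.8, 20.4 and 14.2 with DMSO. Values of dnajc14 were 6.44, 3.72 and 2.60 with Galloflavin, against 4.97, 6.02 and 3.92 with DMSO.

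Other genes of chaperone function outside the symbol rule were read from a list of 45 names, of which 39 were in the table and 38 were tested. None passed, 20 were above 0 and 18 below, and the median log2 fold change was 0.01. Of the 38 genes 20 were lower with Galloflavin in B1 and higher in B2, against 19.7% of all genes and 53.8% of the chaperone genes. The next 3 genes are examples of this pattern picked after their values were seen. The collagen chaperone serpinh1b (Hsp47) was at 216, 1469 and 461 in Galloflavin B1, B2 and B3 against 611, 530 and 861 in DMSO B1, B2 and B3. The Hsp90 cofactor fkbp4 had 101, 362 and 253 with Galloflavin against 193, 147 and 262 with DMSO. The cofactor stip1, which joins Hsp70 and Hsp90, had 123, 256 and 204 with Galloflavin, against 183, 145 and 199.6 with DMSO.

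The list held 1 higher gene (fkbp5) and 1 lower gene (unc45b) at an unadjusted p under 0.05, where 4.18% and 3.03% of all genes were. Groups that did not overlap were found for 2 higher genes (fkbp5 and pfdn1) and 2 lower genes (trap1 and unc45b) of the 38, against 6.97% and 6.47% of all genes. The Hsp90 cofactor fkbp5, a known glucocorticoid target, had 778, 796 and 884 in Galloflavin B1, B2 and B3, against 262, 503 and 483 in DMSO B1, B2 and B3. The groups did not overlap (1.03 ± 0.24, limma adjusted p = 0.602). The myosin chaperone unc45b was lower, with 1.04, 0.784 and 1.25 with Galloflavin against 1.48, 2.84 and 2.65 with DMSO (-0.69 ± 0.21, limma adjusted p = 0.602). The muscle marker sums, given above, overlapped between the groups but were mostly tnnt3b. Of the 5 muscle markers in the table only this 1 had a mean of at least 1, and muscle content was not tested. In trap1, the mitochondrial Hsp90, all Galloflavin libraries were below all DMSO libraries, with 46.1, 49.4 and 46.1 against 52.0, 55.4 and 50.1. In the prefoldin gene pfdn1 all were above, with 27.0, 26.4 and 26.7 in Galloflavin fins against 25.7, 25.8 and 25.8 in DMSO fins.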

How the data were processed

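Polyadenylated RNA was sequenced from 3 Galloflavin and 3 DMSO libraries prepared with a stranded kit, per the labels' protocols. The submitters' processing notes name the aligner STAR 2.7.10a and the assembly GRCz11. How reads were assigned to genes, on which strand, with which annotation and scaling is not stated in these sources, so near-identical paralogs and overlapping genes are uncertain. The deposited signal is a normalised count per gene and library. Division by the lowest non-zero value of a column gave the reads: whole reads were recovered for 100% of values within 0.01 of a read. A value of 0 leaves room for 3 reads (0.102 to 0.163 in normalised counts), which covers counting error only. The table holds no transcript lengths, so levels were not compared between genes. Symbols are those of the deposited table. All 98 identifiers were found in a table of gene names, 29 with the same symbol, the rest mostly in human capital letters. Some names differ in more than case. For example, hsp70.1 (ENSDARG00000092362) is HSPA2 there, cct6a is CCT6B, hspa8b is HSPA8 and hspa12a.3 is hspa12a.1. A further 2 identifiers that match the rule only there were left out, among them another cct2 entry. Neighbouring genes were read from the RefSeq gene order of the assembly GRCz12tu, without coordinates.

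The test was limma 3.58.1 under R 4.3.3 on log2(value + 1), with moderated variances and a mean trend, two-sided, on genes with a mean of at least 1, and p-values were adjusted by Benjamini and Hochberg over all genes tested with a threshold of 0.05. Fold changes are Galloflavin over DMSO on that scale, which understates changes of low genes. The batch field of the labels places 1 library of each group in each batch, so batch was taken as pairing them. After removal of group means, libraries that share a batch correlated at 0.102 (B1), 0.0765 (B2) and 0.49 (B3), and libraries of different batches at -0.389 to 0.377, the highest between Galloflavin B1 and DMSO B2, so that the values alone do not show the pairing. Per the labels each library is a biological replicate. The genes given by library are the member with the highest mean of each class, members with an unadjusted p under 0.05, the 10 with the largest change at a mean of at least 5, the 10 with the lowest batch p and a list of stress response genes. Other members given by library (hsp90b1, hspa9, hspa4a, hspa4b, hspa12a, hspb6, hspb7, dnajb14, dnajb9a, dnajc3a, dnajc16, bag2, the other TRiC subunits) were picked after their values were seen. The members and lists were chosen with earlier results of these data known. Alternatives were batch as a block, other pseudocounts, filters and scalings, edgeR 4.0.16 and DESeq2 1.42.0 on the recovered reads, and each library and batch left out. Scaling by library total and DESeq2 with the block were added after the data were seen.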

Additional observations from a re-analysis of the deposited data

How the results depend on the processing

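With batch as a replicate block limma called 0 chaperone genes and 0 genes in all, as without it. DESeq2 called 83 genes, 1 of them a chaperone gene (hspb1), and with the block 149 genes and 0 chaperone genes. Leaving out a library or a batch gave 0 to 1 genes called for Galloflavin (the 1 without batch B2) and 0 chaperone genes, and the chaperone median ran from -0.06 to 0.10. For batch, 5 genes passed. The count was 0 with edgeR, a minimum mean of 5 or no treatment term, 1 with library total, median-of-ratios or quantile scaling or a pseudocount of 5, and 8 without a filter, where 1 chaperone gene passed (hspa12a.3, adjusted p = 0.0396). Without DMSO B1 it was 285, without Galloflavin B1 210.0 and without DMSO B2 51, and without any of the other 3 libraries it was 0. Chaperone genes called for batch then numbered 0 to 4, the 4 being hspa12a.2, hspa12a.3, hspa5 and hsp70l without DMSO B1. With DESeq2 and edgeR the values turned to 0.28 and 0.277 for hsp90aa1.2, 0.0325 and 0.0294 for hspd1, 0.0147 and 0.0116 for bag3, -0.0181 and -0.00367 for hspa12a.2, and -0.278 and -0.277 for hspa12a.3. With library total and quantile scaling they turned to -0.00622 and -0.0287 for dnaja2a, -0.0409 and -0.0196 for dnajc7, and -0.058 and -0.0509 for hspe1. Library total scaling turned hspa12a.3 (-0.00153) and hspb11 (-0.0302), quantile scaling hspa8 (-0.159) and a pseudocount of 5 hspa12a.3 (-0.034). The cause was not tested. With a library or batch left out, the log2 fold changes of cct6a, dnaja1, dnaja2a, dnajb1b, hsf1, hsf2, hsp90ab1 and hspb8 kept their direction. Log2 fold changes ran from 0.58 to 0.83 for hspb1 and from -0.36 to -0.21 for bag4, which did not turn either. They turned within -1.28 to 1.05 for hsp90aa1.2, -1.10 to 1.47 for hspa8b, -0.511 to 0.871 for hsp70.3, -0.326 to 0.855 and -0.0661 to 1.02 for hsp70.1 (ENSDARG00000092362 and ENSDARG00000029688), -0.0197 to 1.33 for hsp70l, -0.604 to 0.30 for hspa5, -0.562 to 0.881 for hsph1 and -0.0607 to 0.214 for hspa8. For hspa12a.2 they ran from -0.514 to 0.627, for hspa12a.3 from -0.713 to 0.918, for hspa13 from -0.228 to 0.0199, for hspd1 from -0.245 to 0.165, for hspe1 from -0.29 to 0.229, for hspb11 from -0.0799 to 0.116 and for hspbp1 from -0.361 to 0.147. For bag3 they ran from -0.356 to 0.281, for bag5 from -0.382 to 0.0412, for bag6 from -0.0744 to 0.0109, for dnajb11 from -0.18 to 0.196, for dnajb1a from -0.38 to 0.0569, for dnajc14 from -0.519 to 0.00421, for dnajc27 from -0.351 to 0.00443, for dnajc5ab from -0.319 to 0.0228 and for dnajc7 from -0.0767 to 0.123. At this depth hsp90aa1.1 had 6 to 16 reads per library and hspb9l 0 to 7. The tested hspa12a.2 and hspa12a.3 had 1 to 12 reads in the B1 and B2 libraries and reached the filter only through B3.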
